A study of Mus musculus with 6 samples.

Results

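The heavy chain variable gene segments were taken as the 185 genes of the deposited table whose symbol begins with Ighv, of 55421 genes in all. The digits after Ighv give the V family, and the usage of a segment or family was its share of the summed Ighv counts in a library. Messenger RNA was sequenced from mouse splenic B cells activated in culture for 24 h with the bacterial lipopolysaccharide LPS (5 μg/ml) and the cytokine IL-4 (5 ng/ml). The WT group (3 libraries, WT 1 to WT 3) carried CD21-cre and the Rosa mT/mG reporter with an intact Hnrnpl gene, and the hnRNPL-deficient group (3 libraries, hnRNPL-deficient 1 to 3) carried the same alleles together with Hnrnpl F/F, so that the controls also expressed the recombinase. CD21-cre acts mostly in mature B cells, after the heavy chain has been assembled, and GFP+ cells, in which the recombinase had acted, were sorted before RNA was made. Mice were of both sexes, older than 6 weeks and on a C57BL6/J background. The comparison asked whether loss of the RNA-binding protein hnRNPL went with a change in which heavy chain segments were expressed.

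Each developing B cell joins a V, a D and a J segment into its heavy chain gene, so that the V segment in its mRNA is a record of that joining and of the survival of the cell and its progeny. The V segments lie in an array upstream of the D segments and are grouped in families by sequence likeness. Families 2 and 5 lie nearest the D segments and are called D-proximal, and families 1 and 8 fill the distal part. Some segments are known for a particular antigen or B cell subset, such as Ighv11-2 and Ighv12-3, which are frequent among B-1 cells that bind phosphatidylcholine.

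All 185 segments lie on chromosome 12 (GRCm38, the build called mm10) over 2437.2 kb, 183 on the minus strand and the 2 annotated as IG_LV_gene on the plus strand, from Ighv5-1 (113572927 to 113573402), next to the D segments, to Ighv1-86 (116009659 to 116010093). GENCODE M21 annotates 113 of them as IG_V_gene, 70 as IG_V_pseudogene and 2 as IG_LV_gene. Reads were counted in at least 1 library for 147 segments and in all 6 for 120, while 38 segments were at 0 throughout. Of those 38, 35 were annotated as pseudogenes, and the other 3 were Ighv1-16, Ighv1-24 and a row named Ighv5-8 (IG_LV_gene). A count of 0 allows a share of up to 0.0130% (hnRNPL-deficient 1) to 0.0224% (hnRNPL-deficient 3) of the Ighv reads of a library, taking 3 reads as the limit and counting error alone.

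Most segments have close relatives in the locus, which limits how well reads can be assigned. Over the last 250 bases of their transcripts, segments annotated as IG_V_gene were a median of 95.6% identical to their nearest relative. Ighv1-62-2 and Ighv1-71 were identical there, and 18 segments had a relative at 98% identity or more, Ighv11-1 with Ighv11-2 and Ighv1-72 with Ighv1-62-3 among them. Values of such pairs are uncertain, since reads may be split between copies. The 4 segments of family 9 were more distant than such pairs, though near the median. Identity to the nearest relative was 95.6% for Ighv9-1 and Ighv9-2, 94.8% for Ighv9-3 and 91.2% for Ighv9-4. The stretch in which they differ most is shown here because their levels set libraries apart. The transcripts are 351 bases long (GENCODE M21), bases 147 to 246 are given 5′ to 3′, and capitals mark bases that differ from Ighv9-3.
Ighv9-3: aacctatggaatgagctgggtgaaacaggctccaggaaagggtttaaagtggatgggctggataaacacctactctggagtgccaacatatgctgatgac
Ighv9-2: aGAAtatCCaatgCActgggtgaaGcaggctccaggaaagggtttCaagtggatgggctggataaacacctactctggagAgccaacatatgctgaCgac
Ighv9-1: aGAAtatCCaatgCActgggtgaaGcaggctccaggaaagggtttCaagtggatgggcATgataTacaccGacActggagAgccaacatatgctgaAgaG
Ighv9-4: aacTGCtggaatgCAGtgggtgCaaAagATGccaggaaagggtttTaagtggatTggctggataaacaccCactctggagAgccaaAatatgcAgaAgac
Over the whole transcript Ighv9-1, Ighv9-2 and Ighv9-4 differed from Ighv9-3 at 24, 20 and 32 bases.

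The 3′ end of a V segment encodes the cysteine that opens the third complementarity-determining region, the part of the chain that is completed by the D and J segments. The last 36 bases of some of the most used segments and of Ighv11-2 are given to show this junction end. Capitals mark the motif TGTGCAAGA where this exact string of bases is present. It encodes cysteine, alanine and arginine. Other bases can encode the same amino acids, as in Ighv8-12 and Ighv2-2 below, and such ends were not counted as holding the motif.
Ighv3-6: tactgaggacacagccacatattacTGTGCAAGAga
Ighv1-9: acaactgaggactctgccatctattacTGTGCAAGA
Ighv1-26: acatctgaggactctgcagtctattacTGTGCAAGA
Ighv5-4: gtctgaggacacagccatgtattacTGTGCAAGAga
Ighv8-12: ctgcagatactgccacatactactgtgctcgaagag
Ighv2-2: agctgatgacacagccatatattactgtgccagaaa
Ighv11-2: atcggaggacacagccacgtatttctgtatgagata
The motif lay in the last 30 bases of 63 of 113 IG_V_gene transcripts (55.8%) and of 21 of 70 pseudogene transcripts. No segment held it on the opposite strand, none of 195 kappa (Igkv) transcripts ended with it, and 0.0854% of all 141767 annotated transcripts did. It was found in 84 of all 185 segments (45.4%), in 67 of the 106 segments averaging 10 or more normalized counts and in 5 of the 38 at 0. These last 2 sets differ in annotation, since 96 of the 106 were genes and 35 of the 38 pseudogenes.

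Between 13400 (hnRNPL-deficient 3) and 23102 (hnRNPL-deficient 1) reads fell on Ighv segments, out of 40395186 to 75180749 reads on genes per library. The deficiency was seen in every library: Hnrnpl had 24371, 25580 and 24174 normalized counts in WT and 2178, 1519 and 1297 in hnRNPL-deficient cells. B cell identity was checked against 7 B cell markers (Ms4a1, Cd79a, Cd79b and others), of which none was called changed and all were highly expressed. Cd22 (log2 change -0.55, adjusted p = 0.00987, limma) and Ms4a1 (-0.40, adjusted p = 0.0988) were lower but short of the 1.5-fold that a call needed. Cd74 changed by -0.10, and Cd79a (0.27), Cd79b (0.31), Ebf1 (0.10) and Pax5 (0.01) lay above 0. Of the T cell and myeloid lists, Cd3e, Cd4, Lyz2 and Cd14 had group means under 1 normalized count, while others were present, such as Trac (16.6 and 26.6 in WT and hnRNPL-deficient cells), Cd8b1 (28.9 and 8.38), Cd68 (369 and 423) and Adgre1 (278 and 1308). WT 1 and hnRNPL-deficient 3, the shallowest libraries, stood apart from the other 4 in several segments described here, and the values without both are given beside the results they touch most.

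The total heavy chain V signal did not differ detectably between the groups. Summed Ighv normalized counts were 18875, 17505 and 16820 in WT and 20827, 19667 and 18367 in hnRNPL-deficient cells, so that the ranges overlapped. The mean difference was 0.15 on the log2 scale (two-sided exact permutation test, p = 0.2; the smallest p that 3 against 3 libraries allow is 0.1). Entered as a row of the limma fit, the sum gave an interval of -0.07 to 0.37 (95%) and an adjusted p of 0.369. Without WT 1 and hnRNPL-deficient 3 the difference was 0.24. In bulk RNA, a change in the number of cells using a segment and a change in mRNA per cell cannot be told apart.

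The other variable segments gave a frame for this total. Summed kappa (Igkv) counts were 37469 ± 1885 (SD, n = 3) in WT and 37484 ± 1578 in hnRNPL-deficient cells. Summed lambda (Iglv) counts were 2610 ± 218 and 5321 ± 141, a rise of 1.03 on the log2 scale (limma, adjusted p = 7.98e-04). The log2 ratio of Ighv to Iglv counts was 2.77 ± 0.194 in WT and 1.88 ± 0.123 in the hnRNPL-deficient libraries, without overlap (exact permutation p = 0.1, the smallest possible). That of Ighv to Igkv counts was -1.08 ± 0.0196 and -0.94 ± 0.0765, also without overlap and with the same p. Ighm, the constant gene of the IgM heavy chain, had 134945 ± 4776 and 158347 ± 7678 normalized counts. Per 100 Ighm counts there were 13.1 ± 0.318 Ighv counts in the WT group and 12.4 ± 0.509 in the hnRNPL-deficient group (exact permutation p = 0.2). Ighd, the constant gene of the IgD heavy chain, went the other way, with 27854 ± 934 and 21682 ± 1242, without overlap. Its log2 change was -0.36 (adjusted p = 0.0402, limma), short of 1.5-fold. The ratio to Ighm is therefore not a ratio to all heavy chain mRNA.

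Usage was dominated by few segments. On average 16 segments held 50% of the Ighv counts, 30 segments held at least 1% each, and the 10 most used held 39.9%. Ighv3-6 (ENSMUSG00000076672.7, chromosome 12, 114288152 to 114288582) came first in every library, with 13.2, 10.4 and 11.0% of Ighv counts in WT and 12.2, 9.25 and 13.1% in the hnRNPL-deficient libraries. The ranges overlapped, and the 95% Wilson intervals for counting error were narrow, for example 12.7 to 13.7% in WT 1. Its level changed by 0.14 ± 0.17 (log2, SE; adjusted p = 0.639, limma), and by 0.23 ± 0.16 without WT 1 and hnRNPL-deficient 3. Ighv9-3 followed with a mean of 5.27% and Ighv1-9 with 4.29%, and the other segments among the first 10 were Ighv1-26 (3.29%), Ighv8-12 (3.17%), Ighv8-8 (3.04%), Ighv2-2 (2.73%), Ighv1-82 (2.35%), Ighv5-4 (2.21%) and Ighv1-18 (2.05%). Of these 10, 9 were also among the first 10 by normalized count per kb of exon, the scale on which levels of different genes can be compared. On that scale Ighv3-6 had 6146, Ighv9-3 had 2805 and Ighv1-9 had 2293 normalized counts per kb.

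Levels of the most frequent segments differed little between groups. They are given as normalized counts, which also carry the total Ighv level. Ighv1-18, in the distal part, had 348, 351 and 308 normalized counts in WT and 443, 454 and 406 in the hnRNPL-deficient libraries. The groups did not overlap, and the change was 0.37 ± 0.14 (log2, SE), with an adjusted p of 0.138 in limma. Ighv5-4, near the D segments, had 413, 351 and 335 against 480, 482 and 429, a change of 0.34 ± 0.15 (adjusted p = 0.181). Ighv1-82, near the far end, had 436, 402 and 386 against 486, 467 and 461 (0.21 ± 0.13, adjusted p = 0.354). Each of these 3 lay higher in every hnRNPL-deficient library than in any WT library, as did 17.7% of all genes tested, and none passed the test. The other 5 (Ighv1-9, Ighv1-26, Ighv8-12, Ighv8-8 and Ighv2-2) overlapped between groups, with changes from 0.01 (Ighv8-12) to 0.29 (Ighv8-8).

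**Figure D1:**
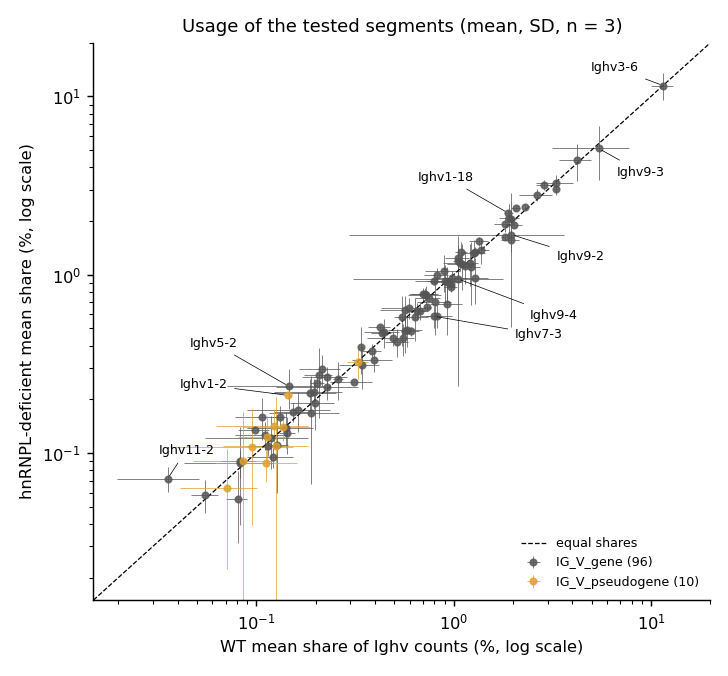
Mean share of Ighv counts in WT (x axis, percent, log scale) against hnRNPL-deficient cells (y axis, percent, log scale) for the 106 tested segments, 96 annotated as genes and 10 as pseudogenes; points are means and bars are SD of 3 libraries, and bars that reach the frame run on beyond it. Points lie along the line of equal shares, with the longest bars at Ighv9-2, Ighv9-3 and Ighv9-4 among the well used segments, and Ighv11-2 above the line at the low end.

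No single segment was called. The 106 segments that averaged 10 or more normalized counts were tested with all other such genes in limma, and 0 passed an adjusted p under 0.1 with a fold change of at least 1.5, where 11.4% of the 17640 genes tested did (7.28% higher and 4.08% lower). The lowest adjusted p of a segment was 0.138. At an unadjusted p under 0.05 there were 5 segments, all higher in hnRNPL-deficient cells (4.72% of the 106, against 14.4% of all genes tested): Ighv1-18, Ighv5-4, Ighv1-2, Ighv1-75 and Ighv11-2. Ighv11-2 reached the filter on low values only through its hnRNPL-deficient libraries. edgeR on the reads of 5 libraries (without hnRNPL-deficient 2) called 0 segments against 9.76% of all genes, with 1 segment at an unadjusted p under 0.05.

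Fold changes of single segments were small. They ran from -0.44 to 1.11 on the log2 scale, 5 of 106 were larger than 1.5-fold, and the median was 0.17 beside -0.03 for all genes tested. The highest was that of Ighv11-2, which passed the filter only through its hnRNPL-deficient values. More segments lay above 0 (77) than below (29), or 72.6% above 0 against 47.3% of all genes. With the Ighv counts of each library scaled to the same sum the median was 0.02. All 3 hnRNPL-deficient libraries lay above all WT libraries for 18 segments (17.0%, against 17.7% of all genes tested) and below them for 1, Ighv7-3 (0.943%, against 16.3%).

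**Figure D2:**
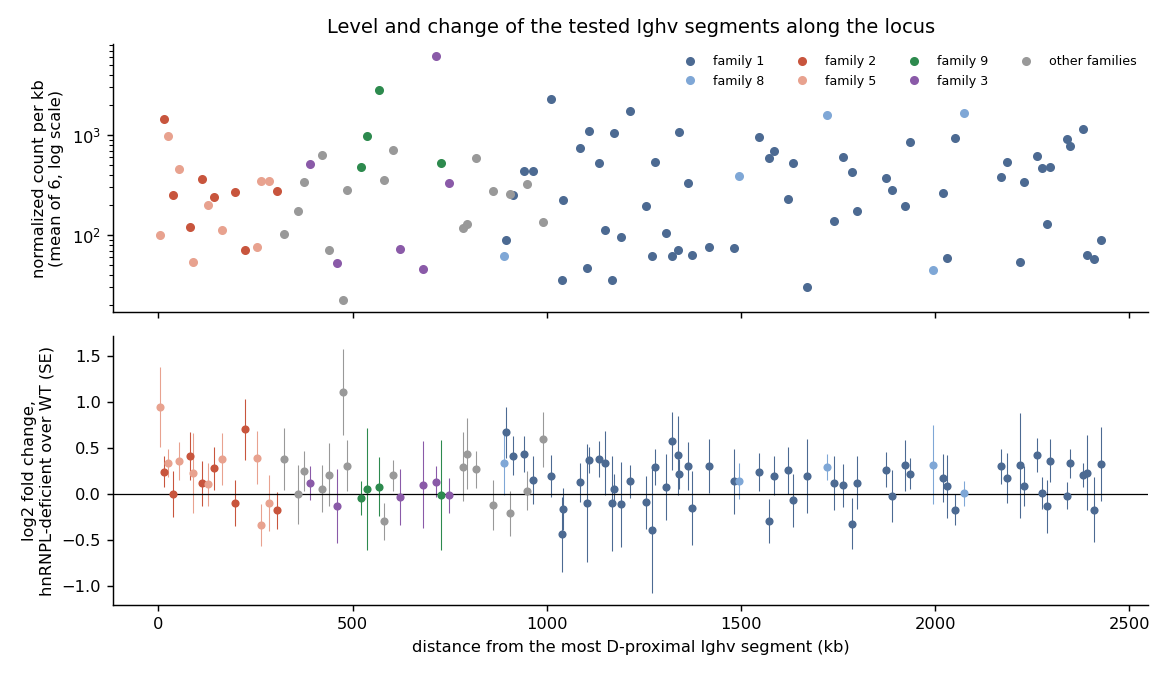
Mean normalized count per kb of exon over 6 libraries (upper panel, log scale) and log2 fold change of hnRNPL-deficient over WT cells with its standard error (lower panel) for the 106 tested segments, by distance in kb from the most D-proximal segment; colours mark V families. Levels spread over a wide range at all distances, Ighv3-6 (6146) being highest. Fold changes lie more often above 0 (77 segments) than below (29).

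Family usage followed the size of the families only in part. Family 1, with 93 segments of which 58 were tested, took 45.2, 52.4 and 50.1% of Ighv counts in WT and 50.2, 53.8 and 46.1% in hnRNPL-deficient cells. Its most used segment, Ighv1-9, held 8.7% of the family. Family 3, with 8 segments, took 13.6 ± 1.41% and 13.5 ± 2.13% (SD, n = 3), and Ighv3-6 alone held 84.9% of it. Counts were therefore spread over many segments in family 1 and concentrated in a single segment in family 3.

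Families 8, 2 and 5 followed with 7.27 ± 0.406%, 6.01 ± 0.918% and 5.54 ± 0.428% in WT and 7.26 ± 0.382%, 6.03 ± 0.431% and 5.77 ± 0.268% in hnRNPL-deficient cells. Within them usage was again uneven: Ighv8-12 held 43.6% of family 8, Ighv2-2 held 45.4% of family 2 and Ighv5-4 held 39.1% of family 5. Family 14 took 3.41 ± 0.245% and 3.46 ± 0.457%, family 6 took 1.68 ± 0.217% and 1.66 ± 0.229%, and family 10 took 1.23 ± 0.0763% and 1.07 ± 0.151%. The rarest were families 11, 12, 13 and 15, each under 0.4% in every library, and family 16, whose only segment, Ighv16-1, had reads in WT 2 and WT 3 alone.

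Among the IG_V_gene members, the level per length varied widely within families. In family 1 the 53 genes ran from 0 to 2293 normalized counts per kb with a median of 369.5, and in family 8 the 9 genes ran from 3.4 to 1648 with a median of 44.6. Family 9 had the highest median, 748.8, with 4 genes between 483.8 and 2805. Family 14 had the smallest ratio of highest to lowest level among families with 4 or more genes, from 174.0 to 701.5.

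**Figure D3:**
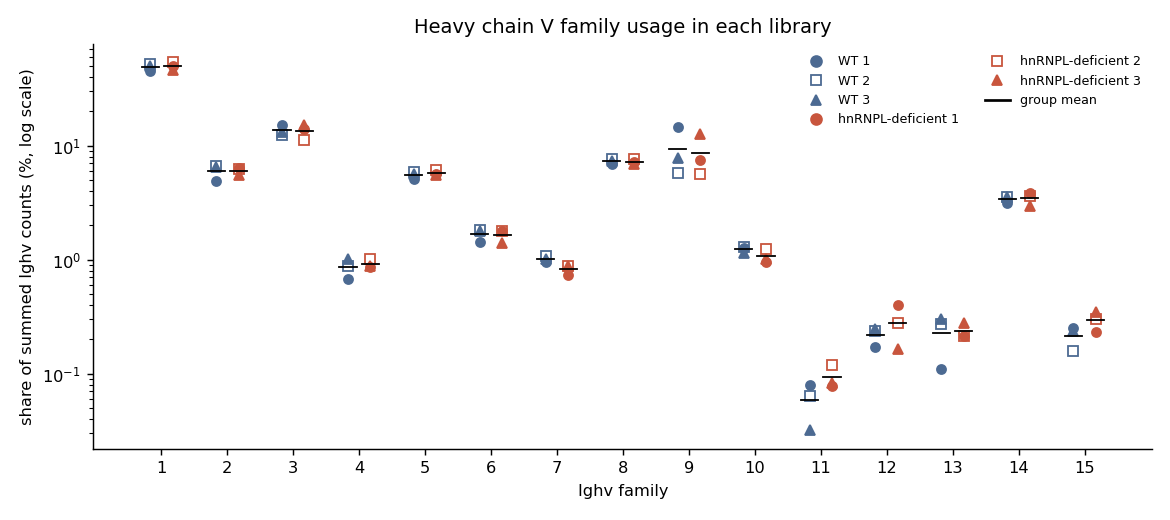
Share of summed Ighv counts (percent, log scale) of families 1 to 15 in each of the 6 libraries (symbols give the replicate number, short lines the group means); family 16 held at most 0.0049% and is left out. WT and hnRNPL-deficient libraries overlap in 14 of the 15 families shown, and WT 1 and hnRNPL-deficient 3 lie apart in family 9 at 14.7% and 12.6%.

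Family usage overlapped between the groups in every family but family 7. Family 7 lay at 0.953, 1.08 and 1.02% in WT and 0.740, 0.883 and 0.881% in hnRNPL-deficient cells (difference -0.185 percentage points, exact permutation p = 0.1, the smallest possible). Adjusted over the 16 families every p was 1.0, and with a smallest p of 0.1 no family could have passed, so that this test cannot tell the families apart. Of the family 7 counts, 74.4% came from Ighv7-3, which had 138, 137 and 146 normalized counts in WT and 106, 132 and 106 in hnRNPL-deficient cells (-0.29 ± 0.20 on the log2 scale, adjusted p = 0.381, limma). The distance between the mean family shares of the groups, the share of counts that would have to move between families to make them equal, was 1.32 percentage points (one-sided exact permutation p = 0.8), and 1.21 without WT 1 and hnRNPL-deficient 3. Single libraries lay 1.32 to 13.2 points apart between groups, 3.29 to 11.9 within WT and 5.26 to 11.2 within the hnRNPL-deficient group.

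The same held for single segments. The distance between the mean segment shares of the groups was 4.58 points (one-sided exact permutation p = 0.6), while libraries of the same group lay 6.39 to 14.8 points apart. Across the 106 tested segments, log2 shares of the group means correlated with r = 0.99, and those of library pairs with r = 0.915 to 0.977. These are descriptions across segments of a single locus, which are not independent. The closest pair of all, WT 2 and hnRNPL-deficient 2, lay 5.69 points apart and belonged to different groups.

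D-proximal usage did not differ detectably between the groups. Families 2 and 5 together took 10.0, 12.5 and 12.1% of Ighv counts in WT and 12.0, 12.3 and 11.1% in hnRNPL-deficient cells, a difference of 0.247 percentage points (exact permutation p = 0.9). The lowest values belonged to WT 1 and hnRNPL-deficient 3, and without these libraries the difference was -0.175 points. The distal families 1 and 8 together took 52.1, 60.0 and 57.4% in WT and 57.3, 61.5 and 53.0% in hnRNPL-deficient cells (exact permutation p = 0.8). A shift between the ends of the locus was not detectable beyond the spread between libraries.

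How evenly the segments were used was measured by the effective number of segments, the inverse Simpson index, which is the number of equally used segments that would give the same concentration. It was 27.7, 36.8 and 36.2 in WT and 32.1, 39.7 and 29.2 in hnRNPL-deficient cells, or 33.6 ± 5.08 and 33.7 ± 5.40 (SD, n = 3; exact permutation p = 1.0). WT 1 and hnRNPL-deficient 3 were the lowest of their groups, and without them the difference was -0.615. The same index over kappa segments was 32.3 ± 2.14 in WT and 32.0 ± 3.01 in the hnRNPL-deficient libraries. The spread between libraries of a group was thus larger than the difference between the groups in both chains.

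WT 1 and hnRNPL-deficient 3 lay above the other libraries in 3 of the 4 segments of family 9. Ighv9-2 (ENSMUSG00000094102.1, chromosome 12, 114109001 to 114109430) had 723, 115 and 232 normalized counts in WT and 270, 147 and 551 in hnRNPL-deficient cells. Ighv9-3 (ENSMUSG00000096459.1, 114140692 to 114141122) had 1511, 650 and 770 against 973, 720 and 1283. Ighv9-4 (ENSMUSG00000094322.2, 114299961 to 114300389) had 354, 77.8 and 139 against 134, 86.8 and 323. In all 3 segments WT 1 was highest and hnRNPL-deficient 3 second, with the other 4 libraries below. Ighv9-1, which differs from Ighv9-3 at the bases shown in capitals above, did not follow: it had 188, 156 and 173 in WT and 185, 159 and 159 in hnRNPL-deficient cells.

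No group difference was detected in these segments. Log2 changes were 0.06 ± 0.66 for Ighv9-2, 0.08 ± 0.32 for Ighv9-3 and -0.01 ± 0.60 for Ighv9-4 (SE), with adjusted p of 0.892 or more in limma. Without WT 1 and hnRNPL-deficient 3 they were 0.28 ± 0.38, 0.24 ± 0.18 and 0.05 ± 0.34, with adjusted p of 0.431 or more. Nor did they lie within counting error: the 95% Wilson interval of the share of Ighv9-2 was 3.55 to 4.14% in WT 1 and 0.555 to 0.778% in WT 2. Family 9 as a whole took 14.7, 5.70 and 7.82% in WT and 7.50, 5.66 and 12.6% in hnRNPL-deficient cells, a difference of -0.820 percentage points, or -0.183 without both libraries.

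A J segment, also picked out after its values were seen, varied in the same way. Ighj3 (chromosome 12, 113429085 to 113429132, minus strand) had 2043, 190 and 436 normalized counts in WT and 432, 106 and 1367 in hnRNPL-deficient cells, again highest in WT 1 and then in hnRNPL-deficient 3. Its annotated sequence is given to identify it.
Ighj3: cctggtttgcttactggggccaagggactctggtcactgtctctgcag
Ighj1 and Ighj4 did not show this order, with 29.0, 52.7 and 65.8 and 60.3, 104 and 106 normalized counts in WT and 37.0, 56.5 and 48.0 and 110, 140 and 111 in hnRNPL-deficient cells. WT 1 was the lowest library for both.

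**Figure D4:**
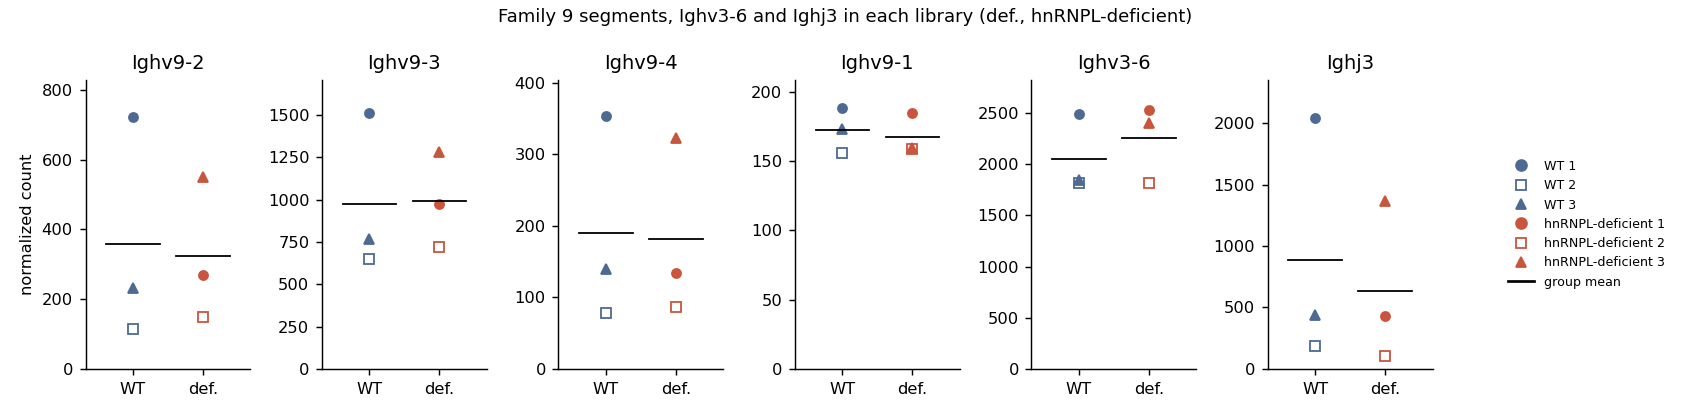
Normalized counts (y axis, from 0, a separate scale in each panel) of Ighv9-2, Ighv9-3, Ighv9-4, Ighv9-1, Ighv3-6 and Ighj3 in the 3 WT and the 3 hnRNPL-deficient libraries; symbols give the replicate number and short lines the group means. WT 1 and hnRNPL-deficient 3 are highest in Ighv9-2, Ighv9-3, Ighv9-4 and Ighj3, while Ighv9-1 lies between 156 and 188 in all 6 libraries.

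Outside family 9, WT 1 and hnRNPL-deficient 3 were the 2 highest libraries for 9 of 102 tested segments (8.82%), close to the 7.62% of all genes tested. Over all genes tested, the deviations of WT 1 and hnRNPL-deficient 3 from their group means were almost uncorrelated (r = 0.05). In segment usage these libraries lay 7.63 points apart, pairs of the other 4 libraries 5.69 to 8.03, and pairs of either with a library of the other 4 lay 10.5 to 16.1 points apart. With family 9 left out these distances were 7.71, 5.75 to 7.47 and 8.65 to 11.8 points, so that the libraries stood apart in other segments too. Both were the shallowest libraries and held the lowest percentages of reads on lincRNA genes, 3.24% and 3.90% against 5.01 to 8.24% in the others. The part of depth or RNA composition in these values was not tested. Once family 9 and Ighv3-6 were left out, family 1 took between 61.7 and 63.3% of the remaining counts in all 6 libraries.

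Segments tied to a known specificity or B cell subset were a list of 10, of which 9 were tested and 0 were called, with a median log2 change of 0.31. Ighv11-2, the phosphatidylcholine-binding segment of B-1 cells, had 9.28, 6.92 and 3.06 normalized counts in WT and 15.3, 16.2 and 11.0 in hnRNPL-deficient cells. All hnRNPL-deficient libraries lay above all WT libraries, and the change was 1.11 ± 0.47 (log2, SE; adjusted p = 0.169, limma). Its mean was 6.42 in WT, 14.1 in hnRNPL-deficient cells and 10.3 over all libraries. Ighv11-2 thus passed the filter of 10 only through the group in which it was high, and its test cannot count as support for a change. The change rested on 4 to 17 reads per library, and Ighv11-1, which differs from Ighv11-2 at 2 of 250 bases, had 5.80, 4.32 and 2.29 against 0.902, 7.07 and 4.11. Leaving out libraries moved this value both ways: the change in Ighv11-2 was 0.73 ± 0.47 without WT 3 (adjusted p = 0.413) and 1.56 ± 0.53 without WT 1 and hnRNPL-deficient 3 (adjusted p = 0.0991). Ighv12-3, the other segment of this specificity, had 32.5, 38.0 and 39.8 in WT and 81.1, 53.5 and 28.8 in hnRNPL-deficient cells, which overlapped (0.44 ± 0.39, adjusted p = 0.501).

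Ighv5-2, a D-proximal segment favoured early in life, had 11.6, 30.3 and 34.4 normalized counts in WT and 40.6, 41.4 and 56.2 in the hnRNPL-deficient libraries. The groups did not overlap (0.95 ± 0.43 on the log2 scale, adjusted p = 0.196, limma), but WT 1 was low, and the change was 0.48 ± 0.32 without WT 1 and 0.34 ± 0.32 (adjusted p = 0.554) without WT 1 and hnRNPL-deficient 3. Ighv1-72, which is used against the hapten nitrophenyl in C57BL/6 mice, had 176, 226 and 181 against 255, 283 and 145 (0.18 ± 0.27, adjusted p = 0.704). Ighv7-1, known from antibodies to phosphorylcholine, had 31.3, 45.8 and 22.2 against 40.6, 36.3 and 49.3 (0.39 ± 0.34, adjusted p = 0.503). In both segments the groups overlapped. The remaining list members were Ighv14-3 (0.31 ± 0.27), Ighv6-3 (0.27 ± 0.20), Ighv1-53 (0.20 ± 0.21) and Ighv10-1 (-0.21 ± 0.24), all with adjusted p of 0.424 or more.

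Pseudogene rows carried little of the signal. Their share of Ighv counts was 1.93, 1.58 and 1.74% in WT and 1.82, 1.33 and 2.05% in hnRNPL-deficient cells (exact permutation p = 1.0). Of 70 such rows, 10 passed the filter on low values. Ighv1-62 came first with 66.1, 49.3 and 58.9 normalized counts in WT and 80.2, 66.6 and 46.6 in hnRNPL-deficient cells, followed by Ighv1-2 and Ighv4-2. Ighv1-2 had 25.5, 25.9 and 25.2 against 45.1, 39.4 and 39.7, without overlap (0.67 ± 0.27, adjusted p = 0.153), and Ighv4-2 had 22.1, 17.3 and 32.9 against 25.2, 26.3 and 30.2. Ighv1-62 differs from its nearest relative, Ighv1-53, at 10 of 250 bases, so that reads of the gene may be counted on the pseudogene.

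Genes that assemble or regulate the heavy chain locus were then examined with the same fit, in which 11.4% of all genes tested were called. Of the recombination machinery, 12 of 15 genes could be tested and 0 were called (median log2 change -0.13). Rag1, which with Rag2 cuts the DNA at V, D and J segments, was at 0 in all 6 libraries, and Rag2 and Dntt, the enzyme that adds bases at the junctions, had at most 4.11 and 1.37 normalized counts. Of 16 regulators of the locus, such as Pax5, 0 were called (median 0.01). Among 8 tested partners of the immunoglobulin chains 1 was lower, Jchain, which links IgM and IgA into polymers (-2.31 ± 0.63 on the log2 scale, adjusted p = 0.0509, limma), and the median was 0.12. Jchain had 117, 109 and 26.0 normalized counts in WT and 23.4, 7.07 and 13.7 in hnRNPL-deficient cells, and its call was lost without WT 1 (adjusted p = 0.131), without WT 2 (0.148), without hnRNPL-deficient 2 (0.126) or without hnRNPL-deficient 3 (0.111).

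Markers of B cell subsets and plasma cells moved in both directions. B cells had been purified before culture by removing CD43+ cells or with a B cell isolation kit, and Spn, a gene of the B-1 list, encodes CD43. Beside 7.28% of all genes called higher and 4.08% called lower, 3 of 10 tested plasma cell markers were lower, Jchain, Fkbp11 (-1.73 ± 0.33, adjusted p = 0.0134) and Derl3 (-0.89 ± 0.30, adjusted p = 0.0999), the last 2 of which act in the endoplasmic reticulum (limma; median -0.05). Derl3 lost its call without WT 2, WT 3, hnRNPL-deficient 1 or hnRNPL-deficient 3 (adjusted p from 0.184 to 0.273). Slamf7 was higher (0.49 ± 0.10, adjusted p = 0.0161, limma) but short of the 1.5-fold that a call needed. Creb3l2 (0.42) and Ell2 (0.37) also lay above 0. The other tested plasma cell markers, Sdc1 (-0.14), Irf4 (-0.06), Xbp1 (-0.04) and Prdm1 (-0.04), lay below 0. Of 8 tested B-1 cell markers 3 were higher, Bhlhe41 (0.99 ± 0.14, adjusted p = 0.00469), Spn (0.97 ± 0.14, adjusted p = 0.00432) and Ctla4 (1.21 ± 0.29, adjusted p = 0.0313), and 1 was lower, Zbtb32 (-0.87 ± 0.19, adjusted p = 0.0236; median 0.08). Cd5, also on the list, fell below the filter on low values and was not tested. It had 1.16, 1.73 and 8.41 normalized counts in WT and 11.7, 22.2 and 8.22 in hnRNPL-deficient cells, which overlapped. Ctla4 lost its call without WT 3 (adjusted p = 0.104) or hnRNPL-deficient 2 (0.106). The summed B-1 list ranged from 4110 to 4804 normalized counts in WT and from 3806 to 4565 in hnRNPL-deficient cells. Zbtb32, which was lower, was its largest part (means 2186 and 1208). The markers called higher had lower levels: Bhlhe41 422 and 843, Spn 316 and 624, and Ctla4 25.5 and 60.8. Whether these markers bear on the values of Ighv11-2 was not tested.

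The following counts again stand beside 11.4% of all genes called. Of 11 marginal zone markers 2 were higher, Cd1d1 (1.62 ± 0.28) and Cr2 (0.85 ± 0.23), and 2 were lower, Dtx1 (-1.94 ± 0.18) and Plac8 (-0.83 ± 0.15), with a median of -0.11 (limma). Cr2 lost its call without WT 2, WT 3 or hnRNPL-deficient 3 (adjusted p from 0.110 to 0.143). Of 8 follicular markers 2 were higher, Cd55 (2.93 ± 0.23) and Ccr7 (0.96 ± 0.10), with a median of 0.18. The summed marginal zone list ranged from 44609 to 46520 normalized counts in WT and from 43574 to 45056 in hnRNPL-deficient cells. Few markers of other lineages could be tested: of 4 T cell markers 1 was lower (Cd8b1, -1.84 ± 0.47), of 3 myeloid markers 1 was higher (Adgre1, 2.24 ± 0.15) and of 2 erythroid markers 1 was higher (Hbb-bt, 1.82 ± 0.40). The call of Cd8b1 was lost without WT 3, hnRNPL-deficient 1 or hnRNPL-deficient 3 (adjusted p from 0.100 to 0.135). Trbc1, S100a8, S100a9 and Slc4a1 were at 0 in all libraries. The summed T cell list ranged from 92.8 to 114 in WT and from 71.3 to 82.8 in the hnRNPL-deficient libraries, the myeloid list from 605 to 743 and from 1662 to 1808, most of it Adgre1 and Cd68, and the erythroid list from 17.6 to 38.3 and from 55.0 to 84.8. Their part in the segment values was not tested.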

How the data were processed

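RNA was poly(A)-selected from cultured cells. The authors trimmed reads with fastp 0.23.1, aligned them with STAR 2.7.9a to mm10, counted them per gene and by strand with featureCounts on GENCODE annotation and scaled each library by its DESeq2 (version 1.38.2) size factor. The treatment of reads that map to several segments is not given in the sources used here. These deposited normalized counts (signal per gene) were used, with 1 column per library. Every value was a whole multiple of what a single read is worth in its library (100.0% of values), which gave back reads per segment. The deposited columns of the authors' own comparison, with means and test scores, log2 fold changes and p-values, were not used.

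Log2(normalized count + 1) of the 17640 genes averaging 10 or more was fitted with limma 3.58.1 (R 4.3.3), with a mean-variance trend and Benjamini-Hochberg adjustment over all genes. Calls needed a 1.5-fold change and an adjusted p below 0.1. Fold changes on this scale understate changes of low genes. Tested on simulated data for this comparison (17640 genes), limma recovered 82 of 100 genes changed 2-fold and 98 of 100 changed 4-fold, with 15 false calls. The simulation gave every gene the same fixed spread, which was not estimated from these libraries. Segments had a median SE of 0.259, against 0.189 for all genes tested, so that recovery among segments was not measured. edgeR 4.0.16, with TMM on the recovered reads of 5 libraries, was an alternative. It left out hnRNPL-deficient 2, although the reads of that library were recovered too, and so had fewer libraries than limma. Sums, shares and indices were compared by two-sided exact permutation tests. The study describes its RNA-seq counts as from 3 mice per group, while the labels do not tie single libraries to mice.

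Members and gene lists were chosen with earlier results of these data known, and 2 genes of the lists are not reported here. Named are the 10 most used segments, called segments, the 3 highest pseudogene rows and the list of segments of known specificity. List genes called or at 0 are named too. So are further segments and genes where a count is small or where the text says that values were seen first. Sequences are from GENCODE M21 transcripts (GRCm38), to which all 185 members were matched by identifier.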

Additional observations from a re-analysis of the deposited data

How the results depend on the processing

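Segments called stayed at 0 under both other pseudocounts, without the filter on low values, with a mean of at least 50, with equal totals, with equal summed Ighv level, in edgeR and without each library in turn (0 to 0). Without hnRNPL-deficient 1 or hnRNPL-deficient 2, Ighv11-2 fell below the filter and was not tested. The number called was 1 without the mean-variance trend (Ighv1-2, adjusted p = 0.0206) and 1 with both WT 1 and hnRNPL-deficient 3 left out (Ighv11-2), an alternative chosen after seeing the data. With the replicate block it was 2 (Ighv5-2 and Ighv11-2, adjusted p = 0.0786 and 0.0974), and 2773 genes were called in place of 2003. The labels do not say whether same-numbered libraries were paired. Deviations of same-numbered libraries correlated with r = 0.429, 0.32 and 0.066. The first 2 were the highest of all pairs across groups, while WT 3 correlated best with hnRNPL-deficient 2 (0.305). The cause of these changes was not tested.

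List genes called numbered 16, 10 with a mean of at least 50, where fewer genes were tested, and 13 to 16 without each library. Calls of Derl3 and Jchain were lost under 8 and 6 settings, those of Cr2 and Cd8b1 under 4 each and that of Ctla4 under 2, always in the same direction. The difference in summed Ighv level was 0.10 to 0.19 without each library and 0.24 without both WT 1 and hnRNPL-deficient 3. The distance between family shares was 1.29 to 4.20 points, the D-proximal difference -0.516 to 0.726 points, the difference in effective number -2.92 to 2.31 and that in pseudogene share -0.175 to 0.186 points without each library. Leaving out Ighv3-6, pseudogene rows, or family 9 with Ighv3-6 (added after seeing the data) moved no difference by more than the spread between libraries. With 4 to 17 reads per library, counting error alone limits segments such as Ighv11-2.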
